A study of Mus musculus with 24 samples.

Results

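The 38 genes described here are interferon-stimulated genes, the antiviral programme that cells switch on when type I interferon reaches its receptor. They were taken as a given list of gene symbols, chosen for membership of the programme, and cover transcription factors, RNA sensors, oligoadenylate synthetases, IFIT proteins, the ISG15 system and other antiviral effectors. All 38 were found among the 55416 gene identifiers of the count table and all had counts. In all, 37 of them were among the 18005 genes with enough counts to be tested, and Oas3 was not.

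The inner medulla, the innermost zone of the kidney, was taken from C57BL/6 mice, an inbred laboratory strain, at 9 to 10 weeks of age. Each mouse had received 1 intraperitoneal dose of 100 µl, either cisplatin at 15 mg/kg dissolved in saline or saline alone, and the tissue was frozen 72 h later. Cisplatin is a platinum drug that damages DNA and injures kidney tubules. There were 6 libraries of cisplatin-treated males, 6 of saline-treated males, 5 of cisplatin-treated females and 7 of saline-treated females, and no group carried a transgene or a mutation per the labels. Poly(A)-selected RNA was sequenced and counted per gene, with 18084242 to 27279102 counts per library. Levels are given as CPM, a gene's counts relative to the library's total, scaled by TMM factors for library composition. Nothing in the labels ties a library to 1 mouse, so p-values reflect how far libraries of a group spread, which may be in part technical. In whole tissue, fewer cells of a type and less RNA per cell cannot be told apart. Collecting duct was present: its principal cell water channel Aqp2 averaged 6718 ± 1702 CPM in cisplatin males and 6558 ± 770 CPM in saline males (SD, n = 6 each). This marker by itself does not tell the zones of the kidney apart. The principal cell markers summed to 5011 to 10095 CPM in cisplatin males and 8101 to 9697 CPM in saline males. In cisplatin and saline females they summed to 6304 to 9103 and 6780 to 11180 CPM. Markers of the thick ascending limb, which lies outside the inner medulla, were also present and varied widely (summed CPM 1605 to 7997 in cisplatin males, 2534 to 13684 in saline males, 3694 to 9228 in cisplatin females and 912 to 11861 in saline females). Some libraries stood apart in composition. Female saline 1 had T and NK cell markers summing to 37.3 CPM, against 0.491 to 1.94 CPM in the other female saline libraries. Female saline 6 had the lowest tubule marker score of the saline libraries, and male cisplatin 5 had the lowest mitochondrial share of all libraries (2.29% of counts).

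Type I interferons bind the receptor of Ifnar1 and Ifnar2, whose kinases Jak1 and Tyk2 phosphorylate STAT proteins, among them Stat2. Stat2 and Irf9 are parts of the complex that binds the interferon-stimulated response element, a DNA motif built of GAAA repeats, in the promoters of the target genes. Their products sense viral RNA, degrade it, block its translation or trap virions, and several of them, among them Irf7 and the RNA sensors, feed back on interferon production. Many of the same genes also respond to interferon-gamma and type III interferon.

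The promoters are shown first, because the members divide into those that hold the motif near their start and those that do not. The 250 bases before the annotated start are printed 5′ to 3′ in the direction of the gene, from RefSeq on GRCm38.p6, with matches to GAAANNGAAA on either strand in capitals. Isg15, Oas1a and Ifit1 are examples of members that rose after cisplatin in males. Isg15 has 3 overlapping matches that begin 78, 72 and 66 bases before the start. Oas1a has 2 that begin 20 and 14 bases before it, and Ifit1 has 2 on the opposite strand. Ifit2 and Cmpk2, with no match in the window, are examples of members that did not pass the test. The examples do not represent their classes. Irf7 and Oasl2, for instance, rose and hold no match, whereas Ddx58 and Rsad2 hold a match and did not pass. The windows lie at chr4:156200819-156201068 on the minus strand for Isg15, chr5:120907526-120907775 on the minus strand for Oas1a, chr19:34640639-34640888 on the plus strand for Ifit1, chr19:34550444-34550693 on the plus strand for Ifit2 and chr12:26468965-26469214 on the plus strand for Cmpk2.
Isg15: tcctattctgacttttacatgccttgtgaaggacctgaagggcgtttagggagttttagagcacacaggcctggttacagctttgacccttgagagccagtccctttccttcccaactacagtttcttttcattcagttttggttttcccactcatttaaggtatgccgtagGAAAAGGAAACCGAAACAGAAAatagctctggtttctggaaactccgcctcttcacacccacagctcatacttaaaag
Oas1a: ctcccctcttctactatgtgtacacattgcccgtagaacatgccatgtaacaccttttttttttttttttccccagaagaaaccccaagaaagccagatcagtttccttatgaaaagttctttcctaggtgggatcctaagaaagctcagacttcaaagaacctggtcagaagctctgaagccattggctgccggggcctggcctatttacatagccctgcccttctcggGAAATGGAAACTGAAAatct
Ifit1: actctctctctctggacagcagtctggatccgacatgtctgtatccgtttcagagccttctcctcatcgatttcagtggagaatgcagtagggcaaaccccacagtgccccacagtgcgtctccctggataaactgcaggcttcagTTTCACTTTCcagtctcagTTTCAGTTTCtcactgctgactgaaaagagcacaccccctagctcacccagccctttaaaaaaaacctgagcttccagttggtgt
Ifit2: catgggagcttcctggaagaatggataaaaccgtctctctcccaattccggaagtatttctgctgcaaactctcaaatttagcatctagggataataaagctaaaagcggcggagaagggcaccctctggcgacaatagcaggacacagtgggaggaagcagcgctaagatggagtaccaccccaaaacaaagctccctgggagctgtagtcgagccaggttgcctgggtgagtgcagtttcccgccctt
Cmpk2: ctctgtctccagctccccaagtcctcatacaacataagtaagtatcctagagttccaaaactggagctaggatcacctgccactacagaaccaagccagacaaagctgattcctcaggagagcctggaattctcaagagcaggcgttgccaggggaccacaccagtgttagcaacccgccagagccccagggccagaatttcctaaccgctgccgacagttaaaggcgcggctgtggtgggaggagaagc
Of the 38 members, 29 had a promoter window in the table, and Usp18, Dhx58, Oas2, Parp9, Parp14, Mx1, Mx2, Ifi27l2a and Rtp4 are named only. In windows of 250 bases before to 50 bases after the start, GAAANNGAAA occurred on either strand in 15 of the 29 members (51.7%), against 3.99% of the 27025 genes in the table. It occurred in 12 of 23 members that rose in cisplatin males (52.2%) and in 2 of 5 that did not pass, Ddx58 and Rsad2. In Ddx58 the match began 2 bases after the start. The other motif searched, TTCNNNGAA, which STAT dimers bind, occurred in 5 of 29 members (17.2%) and in 9.55% of all genes. Of the printed windows, Oas1a and Ifit2 hold a match to TTCNNNGAA, which begins 98 and 241 bases before the start and overlaps no match to GAAANNGAAA. A match is a run of letters and not a measured binding site.

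In male mice most of the programme rose after cisplatin. The log2 fold change was positive in 35 of the 37 tested members (52.3% of all tested genes), and 31 were higher in cisplatin than in saline males at an adjusted p under 0.05 (edgeR quasi-likelihood test, Benjamini-Hochberg adjustment over all tested genes) and 0 were lower. Of all tested genes, 13.2% were called higher and 7.54% lower. The rise was at least 2-fold in 27 of the 31 and at least 4-fold in 9. The median log2 fold change of the members was 1.19, against 0.02 over all tested genes. In 7 members (Oas2, Oasl2, Dtx3l, Trim30a, Parp9, Stat2 and Irf9) every cisplatin male library lay above every saline male library, which held for 3.45% of all tested genes. With a summary of tubule markers (proximal tubule, thick ascending limb) as a covariate, 20 of the 37 members were called in males. Calls in either direction over all tested genes fell as well, from 3731 to 1391. Without male cisplatin 1 and 2, the libraries with the highest levels, 20 members were also called, an alternative chosen after the data were seen. Calls over all tested genes were fewer there too. Male cisplatin 1 and 2 also had the lowest tubule marker scores of all 24 libraries (-1.73 and -1.44), so the 2 settings are not separate checks. Each of these settings ended the same 11 calls, those of Usp18, Ifih1, Eif2ak2, Trim25, Ddx60, Oasl1, Ifit3, Ifit3b, Herc6, Mx1 and Ifi44.

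**Figure D1:**
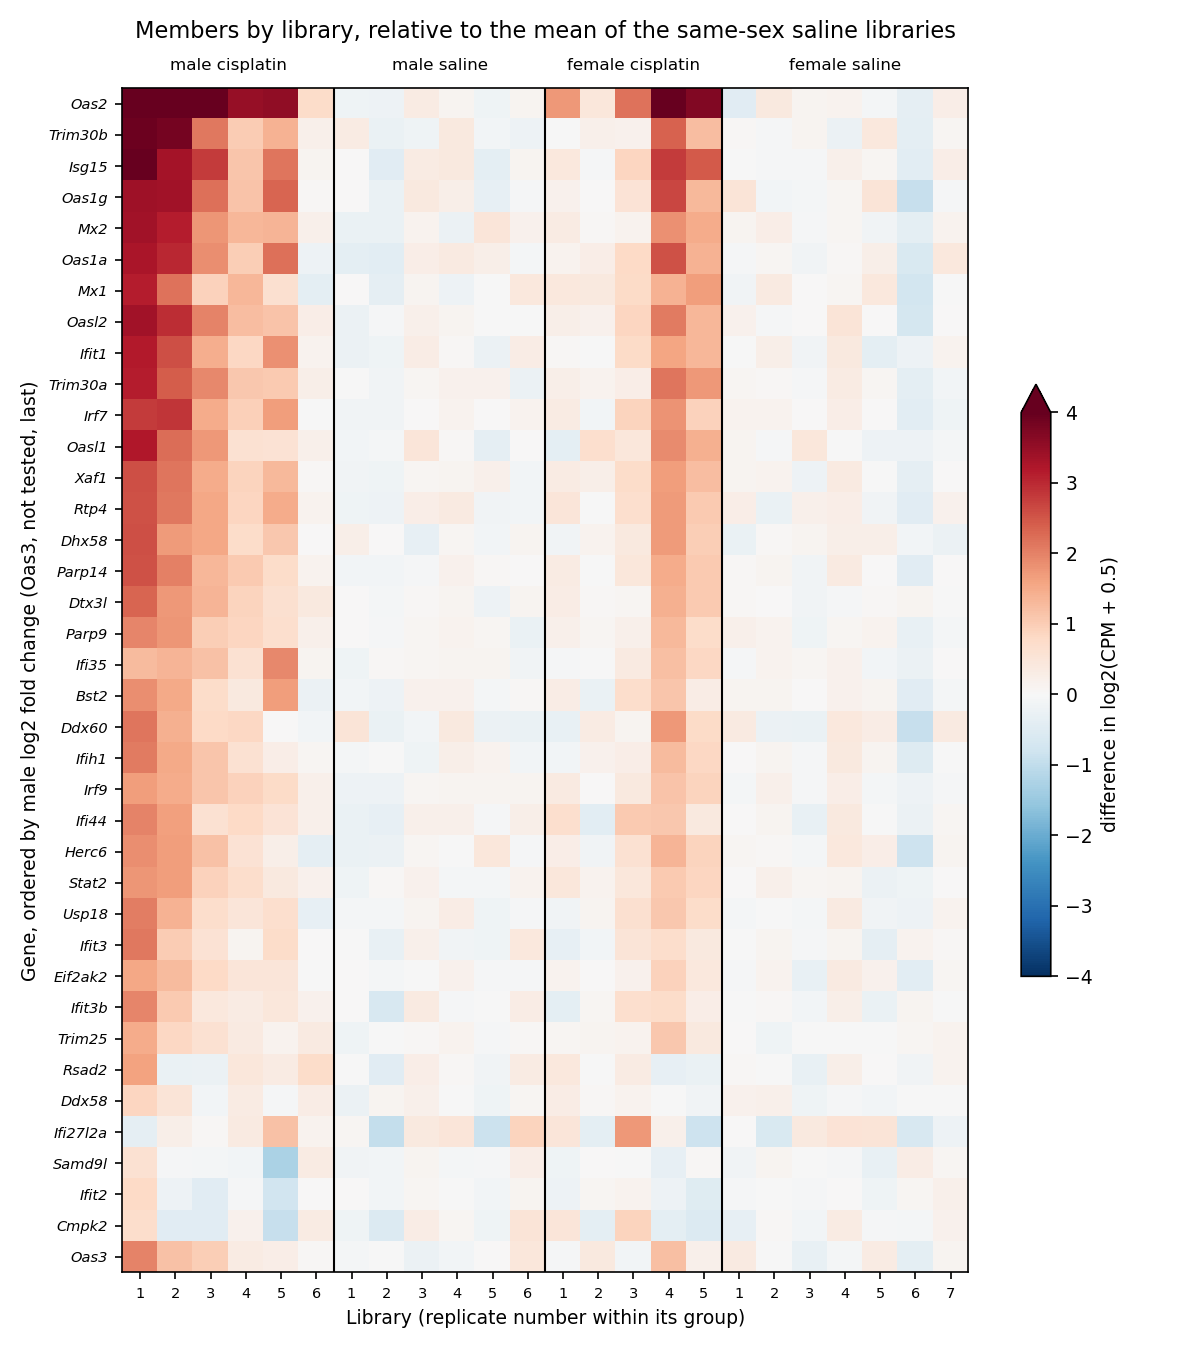
Difference of log2(CPM + 0.5) from the mean of the same-sex saline libraries for each of the 38 members (rows, ordered by the male log2 fold change, with Oas3 last) in each of the 24 libraries (columns, by group). Differences above 4 take the darkest red. Most rows are red in male cisplatin 1 to 5 and in female cisplatin 3 to 5 and pale in male cisplatin 6, whereas the rows of Rsad2, Ddx58, Ifi27l2a, Samd9l, Ifit2 and Cmpk2 follow no such order.

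All 4 transcription factors and feedback genes rose in cisplatin males. Irf7 on chromosome 7 (ENSMUSG00000025498), the factor that amplifies interferon gene transcription, had 21.8, 67.3 and 162 CPM as the lowest, median and highest of the cisplatin males, against 19.7, 22.2 and 24.2 CPM in saline males. Only the lowest cisplatin male library lay within the saline range. Its log2 fold change was 1.96 ± 0.35 (SE), adjusted p = 0.00109. Stat2, the STAT protein specific to type I and type III interferon signalling, averaged 94.3 ± 43.8 CPM in cisplatin males and 45.0 ± 4.33 CPM in saline males (SD, n = 6 each), and these libraries did not overlap. Irf9, the DNA-binding subunit of the complex, averaged 91.5 ± 32.0 CPM in cisplatin males against 42.3 ± 4.71 CPM in saline males. Usp18, which removes ISG15 from proteins and dampens the receptor, had a log2 fold change of 1.05 ± 0.27.

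Of the 6 RNA sensors and their regulators, 5 rose, and of these 5 calls only that of Dhx58 held with the tubule covariate or without male cisplatin 1 and 2. For the other 4 the adjusted p was then 0.065 to 0.262 with the covariate and 0.0711 to 0.404 without the 2 libraries. Dhx58 (LGP2) had the largest log2 fold change of this group, 1.56 ± 0.33 in males, with a mean of 17.7 ± 11.3 CPM in cisplatin males and 5.97 ± 0.861 CPM in saline males. Ifih1 (MDA5, a sensor of long double-stranded RNA) averaged 30.8 ± 17.6 CPM in cisplatin males and 14.0 ± 1.51 CPM in saline males. Eif2ak2 (PKR, which halts translation on binding double-stranded RNA) had a log2 fold change of 0.86, Trim25, a ubiquitin ligase of the RIG-I pathway, 0.70, and the helicase Ddx60 1.14. Ddx60 passed with the largest adjusted p of the called members, 0.0405, and missed the threshold without any 1 of male cisplatin 1, 2 or 3 or male saline 2, 3, 5 or 6, with an adjusted p of at most 0.147. Ddx58 (RIG-I) did not pass: its lowest, median and highest levels were 108, 145 and 210 CPM in cisplatin males and 99.6, 119 and 135 CPM in saline males, and the log2 fold change was 0.33 ± 0.13 (adjusted p = 0.0649). It passed without male cisplatin 3 (adjusted p = 0.0299) and without male cisplatin 5 (0.036).

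The oligoadenylate synthetases, which make short adenylate chains on sensing double-stranded RNA, held 4 of the 8 largest male fold changes, and all 5 tested rose. Oas2 on chromosome 5 (ENSMUSG00000032690) had the largest of all members. Its lowest, median and highest levels were 10.1, 90.7 and 231 CPM in cisplatin males and 5.06, 5.75 and 7.45 CPM in saline males, a log2 fold change of 4.31 ± 0.59 (adjusted p = 8.58e-05). Even the lowest cisplatin male library exceeded every saline one. Oas1a had 3.25, 17.5 and 41.2 CPM (lowest, median, highest) in cisplatin males and 2.79, 4.15 and 5.06 CPM in saline males, with 5 of the 6 cisplatin libraries above the saline range. Oas1g had 1.09, 6.98 and 15.7 CPM in cisplatin males and 0.727, 1.03 and 1.51 CPM in saline males. Here too only the lowest cisplatin library overlapped with saline. Their log2 fold changes were 2.35 ± 0.46 for Oas1a (adjusted p = 0.00203) and 2.93 ± 0.56 for Oas1g (adjusted p = 0.00166). These 2 genes share long stretches: 57.6% of the 50-base words of the longest Oas1a transcript also occur in Oas1g transcripts, and 54.1% the other way, so how reads were split between them is unknown. Oasl1, an inactive synthetase-like protein, and Oasl2, an active one, both rose. Oasl2 had 19.8, 52.6 and 171 CPM in cisplatin males and 13.7, 16.2 and 19.1 CPM in saline males, with no overlap (log2 fold change 2.23 ± 0.40, adjusted p = 0.00109). Oasl1 averaged 20.4 ± 18.1 CPM in cisplatin males and 5.48 ± 1.22 CPM in saline males. Oas3, too low to be tested, reached 1.81 CPM in male cisplatin 1 and lay between 0.109 and 0.841 CPM in the other cisplatin males, against 0 to 0.315 CPM in saline males.

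The IFIT genes on chromosome 19, whose products bind viral RNA and block its translation, split. Ifit1 had 18.9, 54.5 and 158 CPM (lowest, median, highest) in cisplatin males and 14.4, 16.3 and 20.9 CPM in saline males, and rose by a log2 fold change of 2.03 ± 0.37 (adjusted p = 0.00116). Ifit2 on the same chromosome did not pass: it had 68.8, 108 and 202 CPM in cisplatin males and 108, 117 and 128 CPM in saline males, with a log2 fold change of -0.03 ± 0.17 (95% interval -0.37 to 0.31, adjusted p = 0.925). Male cisplatin 1 was far above the saline range for Ifit2, and male cisplatin 5 was far below it. Ifit3 had 141, 220 and 596 CPM in cisplatin males and 112, 132 and 188 CPM in saline males, and Ifit3b 33.6, 40.0 and 115 CPM in cisplatin males against 18.9, 29.5 and 38 CPM in saline males. Both overlapped between the groups. They rose by log2 fold changes of 0.92 ± 0.26 (adjusted p = 0.0148) and 0.86 ± 0.25 (adjusted p = 0.0184). Without male cisplatin 1 their adjusted p was 0.0511 for Ifit3 and 0.0668 for Ifit3b. These 2 also share sequence, 51.2% of the 50-base words of Ifit3 and 44.5% of those of Ifit3b, and the ratio of Ifit3b to Ifit3 counts was between 0.168 and 0.254 in all 24 libraries.

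Isg15 on chromosome 4 (ENSMUSG00000035692), the ubiquitin-like protein that is conjugated to other proteins, had 6.35, 35.6 and 129 CPM as lowest, median and highest of the cisplatin males and 4.16, 6.20 and 7.90 CPM in saline males. Of the 6 cisplatin males, 5 lay above the saline range. Its log2 fold change was 2.96 ± 0.55 (95% interval 1.84 to 4.08, adjusted p = 0.0013). Herc6, the main ISG15 ligase of the mouse, averaged 14.5 ± 8.22 CPM in cisplatin males and 6.82 ± 1.40 CPM in saline males (log2 fold change 1.09 ± 0.31). It missed the threshold without male cisplatin 1 (adjusted p = 0.0533) or without male cisplatin 2 (0.0514). All 3 ADP-ribosylation genes on chromosome 16 rose: Parp14, a mono-ADP-ribosyltransferase, by 1.54, the ubiquitin ligase Dtx3l by 1.40 and its partner Parp9 by 1.21 on the log2 scale. Dtx3l and Parp9 overlap on opposite strands, and no source used here gives the strand setting of the counting, so reads of 1 may have been counted for the other.

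**Figure D2:**
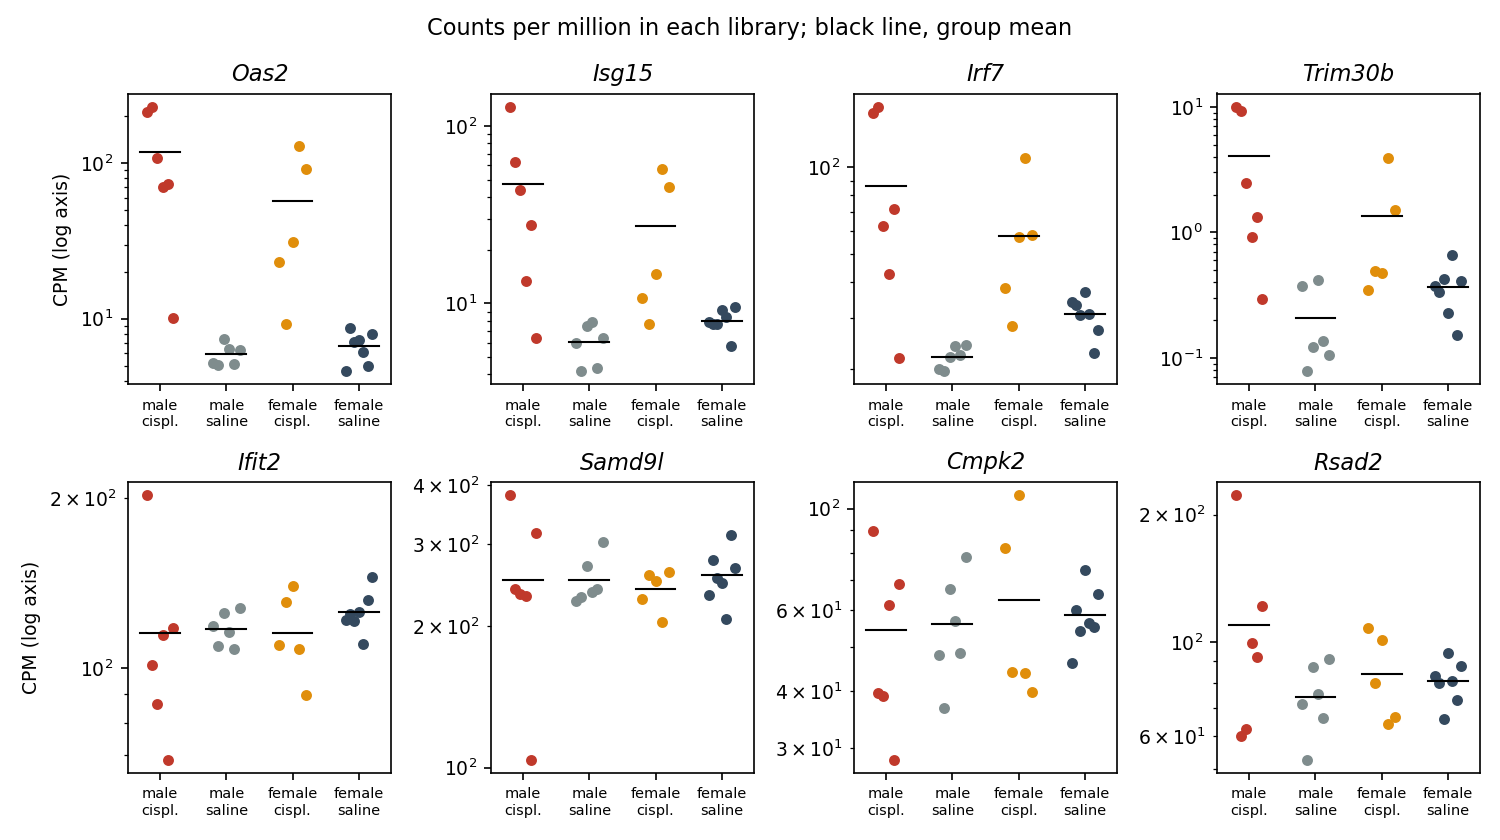
CPM of 8 members in each library (points, log axis) with group means (black lines), for male cisplatin (n = 6), male saline (n = 6), female cisplatin (n = 5) and female saline (n = 7). In the upper row Oas2, Isg15, Irf7 and Trim30b spread upward from the saline range in both cisplatin groups. In the lower row Cmpk2 lies on both sides of it in both sexes. Ifit2 and Samd9l do so in males and reach only below it in females, and Rsad2 does so in females and reaches only above it in males.

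Among the other antiviral effectors, 5 of 8 rose. The dynamin-like GTPase Mx1 had 0.474, 2.32 and 10.9 CPM (lowest, median, highest) in cisplatin males and 0.510, 0.788 and 1.21 CPM in saline males. Its paralogue Mx2 had 3.03, 8.69 and 31.0 CPM in cisplatin males and 2.04, 2.51 and 3.77 CPM in saline males. In both genes only male cisplatin 6 did not exceed the saline range. The log2 fold changes were 2.24 ± 0.51 for Mx1 (adjusted p = 0.00528) and 2.43 ± 0.44 for Mx2 (adjusted p = 0.00111). C57BL/6 mice are known to carry a defective Mx1 allele, and Mx2 is annotated as a polymorphic pseudogene in GENCODE M21, so their transcripts are readouts of the response. Trim30b, a member of a mouse-expanded TRIM family, had 0.292, 1.91 and 10.0 CPM in cisplatin males and 0.0785, 0.129 and 0.418 CPM in saline males. The saline values rest on 2 to 10 counts per library, so its log2 fold change of 4.28 ± 0.79 (adjusted p = 0.0013) has a wide 95% interval of 2.65 to 5.90. Trim30a rose by 1.98 ± 0.39, without overlap, and the virion-tethering Bst2 by 1.17 ± 0.26.

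The other 3 effectors did not pass in males. Rsad2 (viperin, which makes a chain-terminating nucleotide) had 60.1, 95.9 and 222 CPM in cisplatin males and 52.8, 73.4 and 91.2 CPM in saline males, and its log2 fold change was 0.57 ± 0.23 (adjusted p = 0.0766). It passed without male cisplatin 2 (adjusted p = 0.0373) and without male cisplatin 3 (0.0401). Cmpk2, the mitochondrial nucleotide kinase on chromosome 12 with Rsad2, had 28.4, 50.6 and 89.2 CPM in cisplatin males and 36.7, 52.7 and 78.6 CPM in saline males. Its log2 fold change was -0.04 ± 0.25 (95% interval -0.56 to 0.49, adjusted p = 0.93). Samd9l, a restriction factor for poxviruses, had 104, 237 and 381 CPM in cisplatin males and 227, 239 and 302 CPM in saline males, with a log2 fold change of 0.00 ± 0.18 (95% interval -0.37 to 0.37, adjusted p = 0.997). In Cmpk2 and Samd9l male cisplatin 1 was above and male cisplatin 5 below the whole saline range.

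Of the 5 other induced genes, 4 rose in males. Rtp4 and Xaf1 each had a log2 fold change of 1.67, with means of 36.3 ± 20.4 and 30.2 ± 18.1 CPM in cisplatin males against 11.4 ± 2.18 and 9.44 ± 1.10 CPM in saline males. Ifi35 had a log2 fold change of 1.19 and Ifi44 of 1.10. Ifi27l2a did not pass: it had 1.81, 2.86 and 6.20 CPM in cisplatin males and 1.02, 3.00 and 4.98 CPM in saline males (log2 fold change 0.23 ± 0.42, adjusted p = 0.729), and the libraries of both groups were interleaved.

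The members that did not pass were not the weakly expressed ones, except Ifi27l2a, with a mean of 2.80 CPM in saline males. Its level per kilobase is higher because its exon length is only 463 bases. Per kilobase of exon, the mean male saline level of the 6 was 6.04 to 46.3 CPM (median 16.9), whereas that of the 31 called was 0.0273 to 81.0 CPM (median 4.25). Ranked by that level, 5 of the 6 (Samd9l, Ifit2, Rsad2, Ddx58 and Cmpk2) were among the 9 highest members, beside Ifit3, Bst2, Ifi35 and Ifit3b. The fold change and the saline level share the saline values, so their relation is given without a test. The 6 also did not follow the other members from library to library. With the deviations of each library from its group mean, Pearson's r with the score described below was -0.05 to 0.33 for them and 0.67 to 0.98 for the 31 called, over 24 libraries, as a description, since the score includes each gene.

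**Figure D3:**
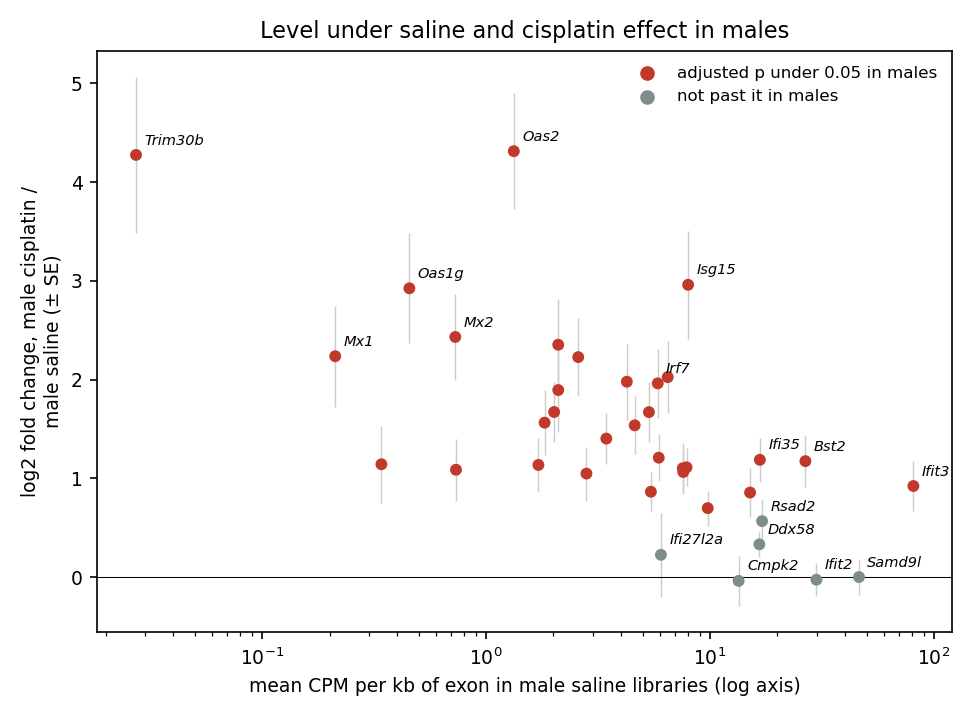
Log2 fold change of cisplatin over saline males (± SE) against the mean male saline level in CPM per kilobase of exon (log axis) for the 37 tested members, red where the adjusted p was under 0.05 and grey where it was not. Trim30b and Oas2 have the largest changes from low levels, and Cmpk2, Ifit2 and Samd9l, at 13.4 to 46.3 CPM per kilobase, lie on the line of no change.

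In females 35 of the 37 tested members had a positive log2 fold change, but 1, Oas2, passed the threshold. Over all tested genes, 0.2% were called higher, 0.0722% lower, and 51.6% had a positive log2 fold change. Oas2 had 23.2, 9.23, 31.0, 129 and 91.5 CPM in female cisplatin 1 to 5, against 4.61, 7.08 and 8.78 CPM as the lowest, median and highest of the saline females. All 5 cisplatin females lay above all 7 saline females, as did 0.511% of all tested genes. The log2 fold change was 3.08 ± 0.54 (adjusted p = 0.00571), and the adjusted p was 0.0718 when the 3 libraries that stood apart in composition were left out. The median log2 fold change of the members was 0.68, against 0.01 over all genes. At an unadjusted p under 0.05, 25 of the 37 members differed in females, against 14.8% of all genes. The DESeq2 Wald test also called 1 member.

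Female cisplatin 4 and 5 carried the highest levels of most members. Isg15 had 10.7, 7.64, 14.7, 57.6 and 45.6 CPM in female cisplatin 1 to 5, against 5.73, 7.83 and 9.57 CPM as lowest, median and highest of the saline females. Female cisplatin 2 lay within the saline range and the other 4 above it (log2 fold change 1.77 ± 0.51, adjusted p = 0.142). Oas1a had 5.01, 5.42, 8.18, 28.6 and 12.5 CPM in the cisplatin females, and 2.73, 4.61 and 6.17 CPM in the saline females, so that female cisplatin 1 and 2 were inside the saline range. Oas1g had 1.68, 1.47, 2.32, 11.8 and 4.26 CPM in the cisplatin females, and 0.532, 1.39 and 2.30 CPM in the saline females. Mx1 had 1.29, 1.24, 1.74, 3.02 and 3.76 CPM in cisplatin females, with 0.304, 0.846 and 1.26 CPM in saline females. For Mx2 the values were 4.79, 3.86, 4.17, 14.3 and 11.3 CPM in cisplatin females, and 2.70, 3.96 and 4.53 CPM in saline females. In Oas1g and Mx2 female cisplatin 4 and 5 stood well above the other cisplatin females. Oasl2 had 26.6, 25, 41.1, 96.4 and 56.6 CPM in cisplatin females, against 13.4, 22.7 and 32.0 CPM in saline females. Trim30b had 0.345, 0.488, 0.475, 3.94 and 1.51 CPM in cisplatin females and 0.152, 0.377 and 0.658 CPM in saline females, so that 3 of the 5 were inside the saline range. Irf7 was also highest in female cisplatin 4 and 5, with 38.3, 28.2, 57.4, 108 and 58.2 CPM in cisplatin females and 22.8, 31.1 and 37 CPM in saline females (log2 fold change 0.91 ± 0.34, adjusted p = 0.245).

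The members that did not pass in males did not pass in females either, with female log2 fold changes of -0.12 to 0.48. Ifit2 had 110, 131, 140, 108 and 89.4 CPM in female cisplatin 1 to 5, against 110, 124 and 145 CPM as lowest, median and highest in saline females. Cmpk2 had 82.1, 44.0, 107, 43.9 and 39.7 CPM in cisplatin females, and 46.1, 56.4 and 73.3 CPM in saline females. For Cmpk2, female cisplatin 1 and 3 were above the saline range and the other 3 below it. Samd9l had 229, 257, 251, 204 and 262 CPM in cisplatin females, against 207, 254 and 314 CPM in saline females. Rsad2 had 108, 80.1, 101, 64.1 and 66.4 CPM in cisplatin females, and 65.8, 81.1 and 94.5 CPM in saline females. Ddx58 had 164, 139, 149, 133 and 121 CPM in cisplatin females and 119, 133 and 155 CPM in saline females. In Ifit2, Cmpk2, Samd9l and Rsad2, female cisplatin 4, the library with the highest level of 31 members, was below the whole saline range. Ifi27l2a had 7.72, 4.00, 19, 6.23 and 2.84 CPM in cisplatin females, against 3.30, 5.40 and 8.04 CPM in saline females, with female cisplatin 3 alone above that range. Ifit3 had 119, 139, 217, 247 and 197 CPM in cisplatin females and 118, 155 and 167 CPM in saline females, and Ifit3b 25.2, 35.4, 53.9, 56.1 and 39.8 CPM in cisplatin females and 27.4, 33.2 and 39.5 CPM in saline females.

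The log2 fold change was larger in males than in females in 35 of the 37 members, the exceptions being Cmpk2 and Ifi27l2a, and smaller in males in 46.7% of all tested genes. The difference itself, female minus male, passed for 0 members and 0% of all tested genes (smallest adjusted p of a member 0.943). At an unadjusted p under 0.05 it was reached by 4 of 37 members, Irf7, Ifit1, Mx2 and Trim30b, against 4.29% of all genes. The median member difference was -0.65 on the log2 scale. For Oas2 it was -1.23 ± 0.75 (95% interval -2.78 to 0.32), for Isg15 -1.19 ± 0.73 (-2.70 to 0.32) and for Irf7 -1.06 ± 0.49 (-2.06 to -0.05). Each interval begins beyond a 4-fold smaller effect in females.

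**Figure D4:**
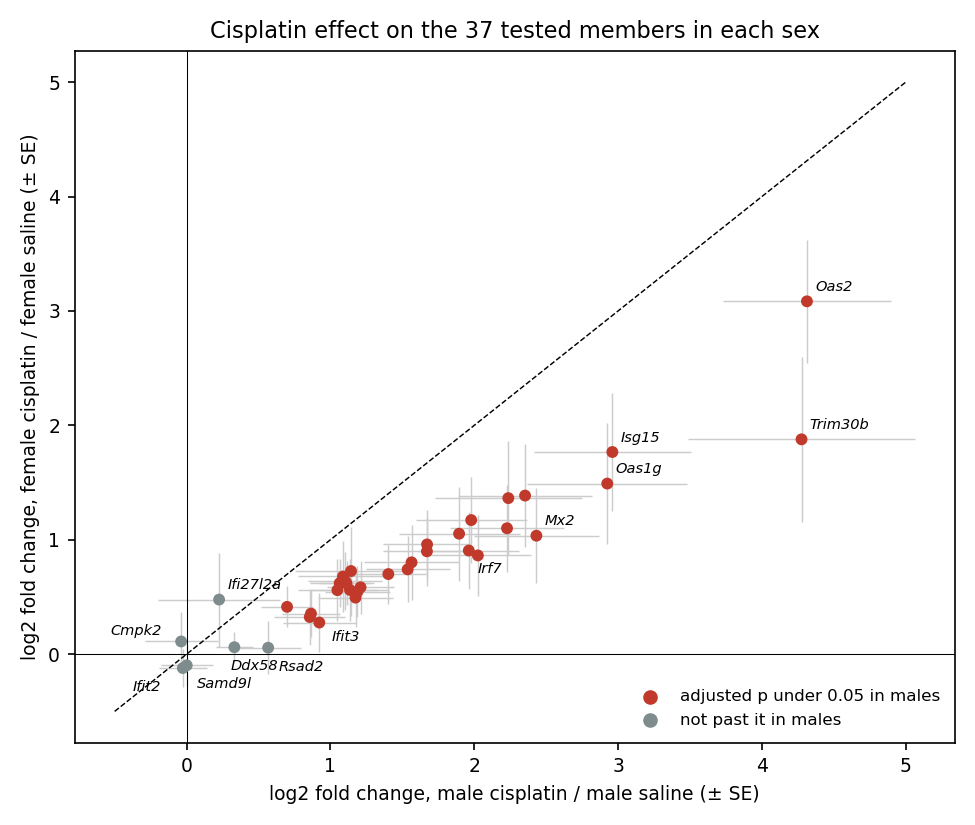
Log2 fold change of cisplatin over saline in females against that in males (each ± SE) for the 37 tested members, with the dashed line of equal change, red where the adjusted p in males was under 0.05. All but 2 members lie below the dashed line, and Oas2 is the highest in both sexes.

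Under cisplatin, 0 members differed between female and male libraries at an adjusted p under 0.05 (0.156% of all genes did, smallest member adjusted p 0.343). The median log2 difference of female over male cisplatin libraries was -0.50, with 3 of 37 members higher in females (46.5% of all genes were). There were 4 members that had an unadjusted p under 0.05 (9.72% of all genes). Under saline, 0 members differed between female and male libraries (0.189% of all genes did), and the smallest adjusted p of a member rounds to 1. One member had an unadjusted p under 0.05 there (3.22% of all genes). The fit takes 1 spread per gene from all 24 libraries, and the cisplatin libraries spread far more than the saline ones. Irf7, for example, averaged 30.9 ± 4.70 CPM in saline females and 22.1 ± 1.94 CPM in saline males (SD). In cisplatin females and males it averaged 58.0 ± 30.6 and 86.1 ± 58.8 CPM. A difference between the saline libraries alone could thus be missed. The directions under saline were one-sided: 36 of the 37 tested members had a positive log2 difference of female over male saline libraries (51.4% of all genes did), Trim25 being the exception, with a median of 0.17. Ifi27l2a had the largest, with 5.70 ± 2.05 CPM in saline females (SD, n = 7) and 2.80 ± 1.53 CPM in saline males (SD, n = 6). Most members rose and fell together from library to library, so counts of their directions are not counts of separate observations. The score described below overlapped between the saline groups, at 3.79 to 4.30 in females and 3.68 to 4.02 in males. Both sex comparisons share libraries with the cisplatin comparisons.

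Taking each library by itself, the mean log2(CPM + 0.5) of the 38 members gives a score. It was 6.17, 5.66, 5.02, 4.65, 4.75 and 4.01 in male cisplatin 1 to 6, against 3.68 to 4.02 in saline males (mean 3.89 ± 0.136, SD, n = 6). In females it was 4.30, 4.17, 4.65, 5.45 and 4.95 in cisplatin 1 to 5, against 3.79 to 4.30 in the saline libraries (mean 4.11 ± 0.157, SD, n = 7). Male cisplatin 6 was inside and the other 5 cisplatin males were above the male saline range. Female cisplatin 1 and 2 were inside the female saline range, 1 of them at its upper end, and the other 3 above it. The cisplatin groups were far more spread than the saline groups, with an SD of 0.768 in cisplatin males and 0.517 in cisplatin females. The mean difference was 1.16 in males and 0.60 in females, and the members together made up 0.240% ± 0.109 of the counts in cisplatin males against 0.131% ± 0.0105 in saline males, and 0.191% ± 0.0431 in cisplatin females against 0.147% ± 0.00881 in saline females.

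**Figure D5:**
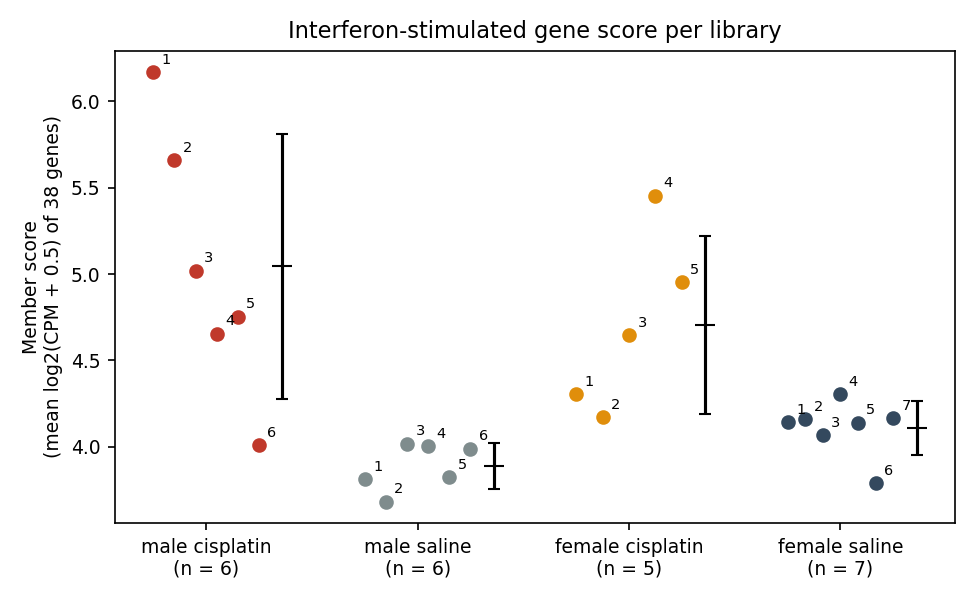
Mean log2(CPM + 0.5) of the 38 members in each library (points, numbered by replicate) with the group mean and SD (bars). Male cisplatin 1 has the highest score, 6.17, and male cisplatin 6, at 4.01, and female cisplatin 2, at 4.17, sit within their saline ranges.

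Counting members above the highest same-sex saline library shows the same spread. Of the 37 tested members, 36 exceeded it in male cisplatin 1 (30.9% of all tested genes did), 32 in male cisplatin 2 (30.6%), 31 in male cisplatin 3 (33.3%), 31 in male cisplatin 4 (24.5%), 30 in male cisplatin 5 (36.9%) and 11 in male cisplatin 6 (18.7%). In females the numbers were 14 in cisplatin 1 (14.7%), 2 in cisplatin 2 (12.9%), 26 in cisplatin 3 (15.4%), 31 in cisplatin 4 (27.6%) and 31 in cisplatin 5 (24.8%). Male cisplatin 1 held the highest level of its group for 34 of the 38 members, and male cisplatin 6 the lowest for 31. Below the lowest saline library were 3 members in male cisplatin 5 (Ifit2, Cmpk2 and Samd9l, beside 35% of all tested genes) and 4 in female cisplatin 4 (Ifit2, Cmpk2, Samd9l and Rsad2, beside 25.5%).

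The injury marker Lcn2, the neutrophil gelatinase-associated lipocalin of damaged tubules, varied over the same libraries. It had 4021, 6589, 2578, 1265, 2470 and 213 CPM in male cisplatin 1 to 6, against 57.8 to 67.3 CPM in saline males, and 546, 111, 122, 3529 and 2097 CPM in female cisplatin 1 to 5, against 49.4 to 129 CPM in saline females. The libraries lowest in Lcn2, male cisplatin 6 and female cisplatin 2, were also lowest in the score of their group. Female cisplatin 3 departed from this order, with Lcn2 inside the saline range and 26 members above theirs. The part of injury severity in the members' levels was not tested.

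Interferon transcripts themselves were close to absent. Of 20 genes for type I, II and III interferons, 6 had 0 counts in all 24 libraries, which allows up to 0.00552 CPM (3 counts over all libraries, counting error only). The other 14 had 105 counts together, at most 28 for 1 gene, Ifne, the epithelial interferon epsilon, and 14 for Ifnb1. None could be tested. Their summed level was 0.0553 to 0.429 CPM in cisplatin males, 0 to 0.409 CPM in saline males, 0 to 0.345 CPM in cisplatin females and 0.0759 to 0.308 CPM in saline females, so a difference between groups was not detectable at this depth.

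Of 9 receptor and kinase genes, 3 rose in males, beside 13.2% of all tested genes. They were the type I receptor chain Ifnar1 (log2 fold change 0.63, adjusted p = 0.0103), and the type III receptor chains Ifnlr1 (0.55, 0.00686) and Il10rb (0.32, 0.0311). The Il10rb call was lost without any 1 of male cisplatin 1, 2, 3 or 5 or male saline 1 or 2 (adjusted p up to 0.0698). Jak1, Tyk2 and Ifnar2 had log2 fold changes of -0.02, 0.03 and 0.00 and did not pass. Of 16 genes of nucleic acid sensing and interferon induction, 4 rose in males, beside 13.2% of all tested genes. Sting1, the adaptor of cytosolic DNA sensing, was the highest of them, at 80.6 ± 36.5 CPM in cisplatin males and 21.5 ± 2.99 CPM in saline males (log2 fold change 1.91 ± 0.28, adjusted p = 0.000233), followed by the Toll-like receptor adaptor Myd88 (0.91, 0.000966), the Toll-like receptor chaperone Unc93b1 (0.74, 0.0102) and the factor Irf3 (0.42, 0.0253). Irf3 missed the threshold without male cisplatin 5, male saline 1 or male saline 4 (adjusted p up to 0.0793). The DNA sensor Cgas, at 0.935 CPM in cisplatin males and 1.20 CPM in saline males, did not pass. In females 0 genes of either list were called, with Sting1 nearest at 1.08 on the log2 scale (adjusted p = 0.0981). It passed in females without male cisplatin 6, without female cisplatin 3, without a filter on low counts (adjusted p = 0.0471), and with DESeq2 (0.0206).

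Of 9 tested nucleases and negative regulators, 3 rose in males, beside 13.2% of all tested genes. They were the cytokine-signalling inhibitor Socs3 (3.61 ± 0.50, adjusted p = 0.000103), the exonuclease Isg20 (1.79, 0.00482), and the RNase H2 subunit Rnaseh2a (0.53, 0.0452). Socs3 also rose in females (2.65, adjusted p = 0.00571), the 1 gene of these 6 lists to do so. That call was lost without female cisplatin 4 (adjusted p = 0.0515) and with the females fitted alone (0.0718). Socs3 averaged 140 ± 75.7 CPM in cisplatin males and 11.5 ± 1.70 CPM in saline males. The Rnaseh2a call was lost without any 1 of male cisplatin 2, 3 or 5, the saline males, female cisplatin 5 or female saline 1, 3, 4 or 7 (adjusted p up to 0.196). Trex1 was listed at 0 counts in every library. With annotation release and strand setting unknown, this does not show that the gene was silent.

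Of 19 tested genes that respond mainly to interferon-gamma, 12 rose in males: the factors Irf1 and Nlrc5, the chemokine gene Cxcl10, and the GTPase genes Gbp2, Gbp3, Gbp9, Igtp, Irgm1, Irgm2, Iigp1, Tgtp1 and Ifi47. Ifi47 led with a log2 fold change of 2.56 ± 0.37 (adjusted p = 0.000179). Ciita, the master factor of MHC class II genes, fell to 1.25 ± 0.927 CPM in cisplatin males, against 2.95 ± 0.879 CPM in saline males (log2 fold change -1.20, adjusted p = 0.0486). Its call was lost without male cisplatin 1, 2, 3 or 5, any saline male, female cisplatin 1 or 2 or female saline 1, 2, 3, 5 or 7 (adjusted p up to 0.106). Without male cisplatin 1 the adjusted p was 0.0652 for Nlrc5 and 0.0718 for Tgtp1. Of 28 other tested interferon-stimulated genes, 15 rose in males: Ifitm3, Lgals3bp, Phf11d, Slfn2, Tor3a, Nmi, Trim21, Apol9b, Parp10, Parp12, Uba7, Ube2l6, Epsti1, Rnf213 and Lgals9. Uba7 and Ube2l6 encode the activating and conjugating enzymes of ISG15 (log2 fold changes 1.23 and 0.79), so both listed enzymes passed in males, as did the ligase Herc6 among the members. The Ube2l6 call was lost with the tubule covariate (adjusted p = 0.129) and without male cisplatin 1 and 2 (0.118), and the Herc6 call likewise (0.146 and 0.232). In the same list Ifi203 fell (log2 fold change -0.81, adjusted p = 0.0418), as did Slfn5 (-0.53, adjusted p = 0.0309). Leaving out 1 library ended 5 calls of this list: Ifi203 without male cisplatin 2, 3 or 5 or male saline 3, 4, 5 or 6 (adjusted p up to 0.0978), Slfn5 without male cisplatin 1, 2 or 3 or male saline 4 or 6 (up to 0.0775), and Phf11d without male cisplatin 1, 2 or 3 or male saline 1, 2, 3 or 5 (up to 0.114). The other two were Lgals9, without male cisplatin 1 or 2 or male saline 2, 3, 5 or 6 (up to 0.118), and Rnf213, without male cisplatin 1 (0.0556). Over the 6 lists, 37 of 81 tested genes rose and 3 fell in males, beside 13.2% and 7.54% of all tested genes. With the tubule covariate, under which calls over all tested genes fell from 3731 to 1391, 18 rose and 0 fell, all 18 among the 37. Of the receptor and kinase genes, 0 were left. Without male cisplatin 1 and 2, 19 rose and 0 fell, again all among the 37. Both settings ended the calls of Ifnar1, Ifnlr1, Il10rb, Isg20, Ciita, Nlrc5, Gbp3, Gbp9, Irgm1, Iigp1, Tgtp1, Ifitm3, Ifi203, Phf11d, Slfn5, Trim21, Parp12, Ube2l6, Rnf213 and Lgals9. The covariate also ended those of Irf3 and Rnaseh2a, and leaving out the 2 libraries that of Apol9b. In females 1 of 81 was called, and 5 of 81 with DESeq2, which added Sting1, Irf1 (adjusted p = 0.0204), Ifi47 (0.0457) and Epsti1 (0.0457). Irf1 also passed in females without male cisplatin 6 (0.0369) or without female cisplatin 1 (0.0198).

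Among the immune cell markers, the only calls in males were in macrophages and monocytes, with 2 of 11 tested higher and 2 lower. Few other immune markers had enough counts to be tested: 1 of 7 for neutrophils, 1 of 8 for T and NK cells, and 2 of 4 each for plasmacytoid dendritic cells and B cells. Of all tested genes, 13.2% were called higher and 7.54% lower in males. For plasmacytoid dendritic cells, the main interferon producers of blood, 0 of 2 tested markers passed, their defining marker Siglech had 45 counts over all 24 libraries, and the summed level of the 4 markers was 0.608 to 2.52 CPM in cisplatin males, 1.68 to 3.43 CPM in saline males, 1.06 to 2.80 CPM in cisplatin females and 0.915 to 8.46 CPM in saline females. For T and NK cells 0 of 1 tested marker passed, and the summed level of 8 markers was 0.143 to 1.98 CPM in cisplatin males and 0.706 to 1.31 CPM in saline males. For neutrophils 0 of 1 passed, with a sum of 0.427 to 1.71 CPM in cisplatin males and 0.353 to 0.962 CPM in saline males. For B cells 0 of 2 passed, with a sum of 11.8 to 31.2 CPM in cisplatin males and 9.76 to 19.2 CPM in saline males. For macrophages and monocytes, of 11 tested, Cd14 (log2 fold change 2.19) and Cd68 (1.91) rose, whereas Adgre1, which encodes F4/80, (-1.50) and Mrc1 (-1.25) fell. The 13 markers summed to 136 to 249 CPM in cisplatin males, 98.9 to 201 CPM in saline males, 111 to 245 CPM in cisplatin females and 81.6 to 197 CPM in saline females. The part of macrophages in the members' levels was not tested. Resident cells moved too: 4 of 6 endothelial, 4 of 4 fibroblast and 2 of 7 principal cell markers (Aqp3 and Aqp4) fell in males, beside 7.54% of all tested genes. For urea transport and thin limbs 0 of 4 markers passed in males, and for the proximal tubule 0 of 7 (median log2 fold change -0.54). For the thick ascending limb 1 of 5 markers fell in males (median log2 fold change -0.73). All 5 erythroid markers fell in both sexes, beside 7.54% of all tested genes in males and 0.0722% in females.

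The tested non-members whose deviations from the group means were most like the member score over the 24 libraries were largely interferon genes as well. The highest Pearson correlations were 0.959 for Iigp1, an immunity-related GTPase, and 0.959 for the guanylate-binding protein gene Gbp2, then 0.954 for Gbp3, followed by Irgm1, Parp12, Lgals9, H2-T23, Slfn2, Rnf213, Trim30d, Ifi47, Csf1, Zc3h7a, Mlkl and Xdh, the last at 0.904. Of these 15, 9 stood on the interferon lists. Outside them were the MHC class Ib gene H2-T23 (0.926), Csf1 (0.912), which encodes the macrophage growth factor, Mlkl (0.905), the executor of necroptosis, and Xdh, xanthine dehydrogenase. Without male cisplatin 1 and 6, the libraries whose score lay farthest from its group mean, the 15 correlations were 0.806 to 0.920. These points share the library and its depth, and the 15 were chosen as the highest of all genes. Csf1 was the only one of them called in females (log2 fold change 1.05, adjusted p = 0.0414).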

How the data were processed

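RNA of the kidney inner medulla was sequenced, and the authors deposited 1 table of raw counts, whole numbers of reads or fragments per Ensembl gene identifier and library. Per the submitters' processing notes, the tools were Trim Galore 0.6.7, Subread 2.0.1, featureCounts and DESeq2 1.28.1 and the build was mm10, without roles. No source used here gives the aligner, annotation release or strand setting, and reads shared by near-identical genes can be split or dropped in such counts. Columns were matched to the samples by the labels.

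Symbols and chromosomes came from GENCODE M21 and a gene name table, in which Sting1 is listed as Tmem173. No symbol was found for 3333 identifiers. With edgeR 4.0.16 (R 4.3.3) the genes were filtered by filterByExpr (minimum count 10), scaled by TMM and fitted with a quasi-likelihood model of 4 group means over all 24 libraries (common biological coefficient of variation 0.251, prior df 4.52, residual df 20). Benjamini-Hochberg adjusted p under 0.05 over all tested genes counted as called, and intervals are 95%. The procedure was tested on simulated data with the same spread in every group, so that test does not cover the wider spread of the cisplatin libraries.

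The members and gene lists were chosen with earlier results of these data known, and 2 genes of the lists are not reported here. Values per library are given for the members with the largest and the smallest male fold changes and for pairs with near-identical sequence, and Irf7, Stat2 and others were added for their role. No library was a copy of another of its group (chi-square per gene at least 7.88 over 61 pairs). Replicate numbers do not pair the libraries. Alternatives were RLE scaling, no filter, DESeq2 1.42.0, 1 sex alone, a replicate block, a tubule covariate, leaving out libraries of divergent composition, and leaving out each library.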

Additional observations from a re-analysis of the deposited data

Results flagged for a closer look

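Among 148 sets of one member's levels in one group, 8 had a highest or lowest library whose gap to the nearest of the others was large for its group by Dixon's criterion, which chance alone gives in about 1 of 20. In male cisplatin 1, Ifit2 was at 202 CPM (others 68.8 to 118), Ifit3 at 596 CPM (others 141 to 281) and Ifit3b at 115 CPM (others 33.6 to 62.0). In male cisplatin 5, Ifi27l2a was at 6.20 CPM (others 1.81 to 3.28). In female cisplatin 4, Trim25 was at 117 CPM (others 59.3 to 73.7) and Oas1g at 11.8 CPM (others 1.47 to 4.26). In female saline 3, Oasl1 was at 8.38 CPM (others 5.09 to 6.49). In female saline 5, Ifit3 was lowest at 118 CPM (others 147 to 167).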

How the results depend on the processing

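Members called in males numbered 31, and 31 with RLE scaling, with DESeq2 and with the replicate block, 32 without a filter (Oas3 added) and 32 without the 3 libraries of divergent composition (Ddx58 added), 27 with males fitted alone, and 27 to 32 without 1 library. They numbered 20 with the tubule covariate and 20 without male cisplatin 1 and 2 (chosen after seeing the data). Both settings lost the same 11 genes, but male cisplatin 1 and 2 had the lowest tubule marker scores, so they are not separate checks. Genes called in males numbered 3731, and 2402 with males alone, 1391 with the covariate, 2018 without male cisplatin 1 and 2, and 2554 to 5268 without 1 library. In females Oas2 was called in each fit except with the replicate block (0 called, adjusted p = 0.159) and without the 3 divergent libraries (0 called, 0.0718). It was the 1 member called in the other fits, those without 1 library included, except that Stat2 was called as well without male cisplatin 1 and 2. The block also ended the female call of Socs3 (0.207). Of the genes of the 6 pathway lists, 37 were called higher and 3 lower in males, and 33 and 1 with males alone, 34 and 3 with the block, and 31 to 44 and 0 to 4 without 1 library. Genes called in females numbered 49, and 85 without a filter, 241 with DESeq2, 20 with females alone, 16 with the replicate block, 24 with the covariate, 32 without the 3 libraries, and 21 to 139 without 1 library: 21 without female cisplatin 4 or 5, 139 without female cisplatin 3. Counts of 0 for the interaction and the sexes, and the score differences, kept their side. The replicate numbers of the labels did not pair the libraries (r of same-numbered deviations -0.266 to 0.0803 over 11 pairs).

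Among single genes, log2 fold changes turned sign where they were near 0. In males, Ifit2 became 0.0854 and Cmpk2 0.0938 and Ifi27l2a -0.0502 without the 3 libraries, and Cmpk2 0.102 with the covariate. Samd9l became -0.00244 with RLE, -0.0104 without a filter, -0.00249 with DESeq2, -0.00506 with males alone, -0.043 with the block, -0.185 with the covariate and -0.18 without male cisplatin 1 and 2. In females the block gave -0.00411 for Rnaseh2a and -0.00362 for Irgm2. Without 1 library, in males the log2 fold changes were Ifit2 between -0.262 and 0.0735, Cmpk2 between -0.234 and 0.0837, Samd9l between -0.155 and 0.15, Ifi27l2a between -0.0603 and 0.466; in females the log2 fold changes were Rsad2 between -0.0523 and 0.139, Cmpk2 between -0.161 and 0.24, Ifi27l2a between -0.134 and 0.693, Rnaseh2a between -0.00444 and 0.132, Nlrc5 between -0.00392 and 0.289, Irgm2 between -0.13 and 0.149. The cause of these changes was not tested.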
